A study of Mus musculus with 9 samples.

Results

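The genes encoding receptors for glutamate and GABA were followed across cell classes and genotypes of the mouse neocortex shortly before birth (E18.5). They were chosen by name alone. A gene belonged to the set if its symbol began with *Gria*, *Grid*, *Grik*, *Grin*, *Grm*, *Gabra*, *Gabrb*, *Gabrg* or *Gabbr* followed by a number. Of 17477 genes listed in the 6 libraries used, 38 met this rule. Subunits of glutamate-gated channels made up 17 of them, with 4 AMPA, 5 kainate, 6 NMDA and 2 delta receptor genes. A further 7 encode metabotropic glutamate receptors, 11 encode α, β or γ subunits of the GABA-A receptor (5, 3 and 3) and 2 encode the GABA-B receptor subunits. The last, *Grid2ip*, encodes a scaffold protein and no receptor. It had 14 unique molecular identifiers (UMIs, the tags that mark single captured transcripts) in all kept cells. *Grin2c* had 15 UMIs and *Grin2d* none, so these NMDA receptor genes and *Grid2ip* were too rare to compare.

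The neocortices came from wild-type (WT) and *Tcf4* knockout (KO) littermates of *Tcf4* haploinsufficient parents (strain label Tcf4ex4WT/lacZ), with no treatment. KO embryos carry, on both alleles and in every cell of the body, a *lacZ*/neomycin cassette ahead of exon 4 of *Tcf4*, which encodes a basic helix-loop-helix transcription factor. The long protein TCF4B is lost in them, whereas the shorter TCF4A is still made. Single cells were captured with the Chromium 3′ v2 chemistry, 1 library per animal, and WT replicates 2 to 5 (WT2 to WT5) and KO replicates 4 and 5 (KO4 and KO5) were used. Genotypes were compared between WT2, WT3 and WT4 (n = 3) and KO4 and KO5 (n = 2). WT5, the library labelled as WT replicate 5, is shown beside them. The paper left out 1 WT animal because its *Tcf4* level was below that of the KO, without giving its number. The main comparison follows that rule, by which WT5 was kept out of it. The labels do not say which animals shared a litter, and errors cover the spread between libraries.

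Fast excitation in the cortex runs through AMPA, kainate and NMDA receptors, tetramers whose subunits set conductance, calcium entry and kinetics, while metabotropic glutamate receptors act through G proteins. GABA opens the chloride channel of the GABA-A receptor, built from α, β and γ subunits, and acts through G proteins at the GABA-B receptor. Before birth both transmitters also act on dividing and migrating cells, and the subunits in use change as the cortex matures.

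Between 1184 and 6173 cells per library were kept, with medians of 2217 to 4359 UMIs per cell. The libraries fell into 2 sets that do not follow the genotype labels. In glutamatergic cells *Tcf4* itself stood at 14.2, 14.3 and 14.5 UMIs per 10000 in WT2, WT3 and WT4, at 7.21 in WT5, and at 9.74 and 7.55 in KO4 and KO5, so WT5 lay with the KO libraries. Progenitors split likewise. In GABAergic cells it read 10.6, 8.66 and 10.9 in WT2, WT3 and WT4, 6.98 in WT5, and 8.95 and 8.86 in KO4 and KO5. In glia it read 7.85, 6.97 and 8.13 in WT2, WT3 and WT4, 7.47 in WT5, and 8.01 and 7.27 in KO4 and KO5. Genotypes overlapped in both of these classes. In endothelial and microglial cells *Tcf4* was higher in WT5, KO4 and KO5. The 3′ tags counted here lie downstream of the cassette and are shared by the TCF4 isoforms, so this level by itself does not check the genotype. WT5, KO4 and KO5 also shared high *Actb* (160 to 229 UMIs per 10000 over all classes, against 30.4 to 77.0 in WT2, WT3 and WT4) and many cells left out for haemoglobin (3.71, 13.9 and 40.4%, against 0.421 to 1.34%). Of the genes called between genotypes (limma, adjusted p under 0.05), WT5 lay beyond WT2, WT3 and WT4 on the KO side for 263 of 263 in glutamatergic, 108 of 110 in GABAergic, 1215 of 1302 in progenitor and 970 of 998 in glial cells. Genotype and this split cannot be told apart among WT2, WT3, WT4, KO4 and KO5. No more than 39 cell barcodes were shared by any pair of libraries.

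Cells were assigned to 4 classes, glutamatergic, GABAergic, progenitor and glial, by at least 2 detected marker genes after each cell was thinned to 1800 UMIs. None of the markers is a receptor gene. The classes held 650 to 3023 glutamatergic, 44 to 930 GABAergic, 88 to 344 progenitor and 108 to 455 glial cells per library. Endothelial and microglial cells (14 to 79 per library), which should hold little receptor RNA, served as background. Class markers were lower in WT5, KO4 and KO5. Summed over 9 markers each, glial markers in glial cells reached 16.6 to 23.4 UMIs per 10000 there against 50.5 to 60.3 in WT2, WT3 and WT4, and progenitor markers in progenitors 13.3 to 20.3 against 48.8 to 50.2. The 8 glutamatergic markers, by contrast, summed to 9.15 to 10.4 in the endothelial and microglial cells of WT5, KO4 and KO5, against 1.63 to 4.39 in those of WT2, WT3 and WT4, with 4 to 7 of them detected per library. The part of this difference in the results below was not tested.

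*Gria2* (ENSMUSG00000033981, chr3:80681450-80802835, minus strand of GRCm38) was the most abundant receptor gene. It encodes the AMPA receptor subunit that, once its RNA is edited, keeps calcium out of the channel. In glutamatergic cells it stood at 9.01, 11.5 and 11.2 UMIs per 10000 in WT2, WT3 and WT4, 6.22 in WT5, and 7.31 and 6.28 in KO4 and KO5. Every level given is the average over a class of the UMIs of a gene per 10000 UMIs in the same cell. Each transcript is tagged once at its 3′ end, so levels were not divided by gene length, and an order of genes is one of 3′ tags. WT2, WT3 and WT4 lay above the other libraries without overlap. The 250 bases before its start, chr3:80802836-80803085 on the minus strand (RefSeq, GRCm38.p6), are shown because *Gria2* and the GABA-A receptor gene *Gabra2* were called in several of the comparisons that follow. Capitals mark CANNTG, the short E-box motif that basic helix-loop-helix proteins such as TCF4 can bind, searched as letters, which read alike on both strands.
*Gria2* promoter: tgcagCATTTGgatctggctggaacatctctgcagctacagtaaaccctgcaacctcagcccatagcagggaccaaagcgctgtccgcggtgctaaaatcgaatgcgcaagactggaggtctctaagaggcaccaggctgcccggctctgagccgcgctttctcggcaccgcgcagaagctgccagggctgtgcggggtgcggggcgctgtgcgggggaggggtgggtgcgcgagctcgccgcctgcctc
*Gabra2* promoter: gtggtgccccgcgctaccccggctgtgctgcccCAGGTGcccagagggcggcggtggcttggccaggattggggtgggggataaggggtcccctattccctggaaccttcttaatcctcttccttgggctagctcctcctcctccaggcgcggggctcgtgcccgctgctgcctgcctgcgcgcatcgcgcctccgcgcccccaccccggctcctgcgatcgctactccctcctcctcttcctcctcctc
The second sequence lies at chr5:71095850-71096099, also on the minus strand. Each holds 1 match, CATTTG before *Gria2* and CAGGTG before *Gabra2*. A match was present in 21753 of 32851 promoters of this length (66.2%) and in 10 of 32 promoters found for 24 of the 38 genes. Such letters are a description and show no binding.

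The other AMPA receptor genes were far lower. *Gria2* made up, in glutamatergic cells, the following share of the summed AMPA receptor level, 94.3, 95.6 and 94.4% in WT2, WT3 and WT4, 89.0% in WT5, and 91.7 and 89.3% in KO4 and KO5. Its share was high in every library, somewhat less so in WT5, KO4 and KO5, whose values did not overlap those of WT2, WT3 and WT4 (2-sided exact permutation test of KO against WT, p = 0.1, the smallest that 3 against 2 libraries allow). *Gria1*, *Gria3* and *Gria4*, which encode the remaining pore-forming AMPA subunits, averaged 0.179 ± 0.0810, 0.251 ± 0.0563 and 0.15 ± 0.0112 UMIs per 10000 (SD over WT2, WT3 and WT4, n = 3), against 10.6 ± 1.36 for *Gria2*. *Gria1* made up 5.68, 8.63 and 17.5% in WT2, WT3 and WT4, 2.56% in WT5, and 2.34 and 5.09% in KO4 and KO5 of the AMPA total in GABAergic cells, more than its 0.711 to 2.31% in glutamatergic cells of WT2, WT3 and WT4 but less than the glutamatergic share in WT5 and KO4 (4.45 and 3.17%). In GABAergic cells the genotypes did not overlap although WT2 and KO5 were close.

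Among kainate receptor genes *Grik5* led in glutamatergic cells of every library but WT3, where *Grik2* was higher. *Grik5* encodes a high-affinity subunit that forms channels only together with GRIK1, GRIK2 or GRIK3. Its level in glutamatergic cells was 0.244, 0.102 and 0.397 UMIs per 10000 in WT2, WT3 and WT4, 0.363 in WT5, and 0.389 and 0.445 in KO4 and KO5, with WT3 lowest and the genotypes overlapping. *Grik2*, for a principal kainate subunit, stood at 0.128, 0.153 and 0.156 UMIs per 10000 in WT2, WT3 and WT4, 0.166 in WT5, and 0.220 and 0.207 in KO4 and KO5, and KO4 and KO5 both lay above all WT libraries. Averaged over WT2, WT3 and WT4, *Grik2* was above *Grik5* in GABAergic cells (0.249 ± 0.0886 against 0.185 ± 0.162) and in progenitors (0.188 ± 0.00626 against 0.152 ± 0.106), less than the spread among libraries. *Grik3* averaged 0.0822 ± 0.0219 in WT2, WT3 and WT4, *Grik4* 0.0268 ± 0.0214 and *Grik1* 0.00558 ± 0.00443.

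*Grin2b* (ENSMUSG00000030209, chr6:135713233-136173511, minus strand) supplied most NMDA receptor RNA. It encodes the glutamate-binding subunit typical of the cortex before birth, whereas *Grin2a*, its postnatal counterpart, and *Grin3a*, a glycine-binding subunit that lowers calcium entry, are known as minor at this stage. *Grin2b* in glutamatergic cells stood at 1.68, 0.952 and 2.15 UMIs per 10000 in WT2, WT3 and WT4, 2.08 in WT5, and 1.94 and 1.64 in KO4 and KO5. WT3 was lowest, WT4 highest, and KO4 and KO5 lay between them. Of the NMDA total it was 87.4, 88.2 and 88.5% in WT2, WT3 and WT4, 87.3% in WT5, and 85.9 and 84.4% in KO4 and KO5, while *Grin2a* held 1.80 to 2.27% and *Grin1*, the subunit that every NMDA receptor needs, 5.36 to 7.95% over the 6 libraries.

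The delta receptor gene *Grid1*, whose product binds cerebellins at synapses, was near the limit of detection. In glutamatergic cells it read 0.0179, 0.0141 and 0.0456 UMIs per 10000 in WT2, WT3 and WT4, 0.0495 in WT5, and 0.0513 and 0.0334 in KO4 and KO5. The groups overlapped.

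*Grm5* led the 7 metabotropic genes in glutamatergic cells. Its product couples to Gq proteins and is known from immature neurons and astrocytes. In glutamatergic cells *Grm5* stood at 0.334, 0.265 and 0.508 UMIs per 10000 in WT2, WT3 and WT4, 0.835 in WT5, and 0.648 and 0.669 in KO4 and KO5, so WT5, KO4 and KO5 all lay above WT2, WT3 and WT4. In GABAergic cells it stood at 0.783, 0.832 and 0.870 UMIs per 10000 in WT2, WT3 and WT4, 0.790 in WT5, and 0.436 and 0.746 in KO4 and KO5, and here KO4 was lowest. Of the metabotropic total in glutamatergic cells *Grm5* took 62.7, 73.5 and 69.5% in WT2, WT3 and WT4, 75.9% in WT5, and 70.1 and 71.8% in KO4 and KO5. This share overlapped between genotypes. *Grm2*, *Grm3*, *Grm4*, *Grm7* and *Grm8* were much lower there, the highest of them, *Grm2*, averaging 0.0534 ± 0.0344 in WT2, WT3 and WT4.

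*Gabra2* (ENSMUSG00000000560, chr5:70957597-71095849, minus strand) ranked next after *Gria2* in glutamatergic cells of WT2, WT3 and WT4 and was the leading GABA-A subunit there. In WT5, KO4 and KO5 *Grin2b* exceeded it, and in KO5 *Gabbr1* did too. The α2 subunit that it encodes is prominent in immature brain. Its glutamatergic level was 2.28, 2.93 and 2.17 UMIs per 10000 in WT2, WT3 and WT4, 1.17 in WT5, and 1.28 and 1.05 in KO4 and KO5, so that WT5, KO4 and KO5 lay well below WT2, WT3 and WT4. Of all α subunits *Gabra2* made up 86.6, 93.2 and 85.8% in WT2, WT3 and WT4, 69.6% in WT5, and 74.8 and 73.6% in KO4 and KO5, again without overlap between genotypes (exact permutation test, p = 0.1). *Gabra5*, for an α subunit found mostly outside synapses, took 6.73, 2.31 and 5.95% in WT2, WT3 and WT4, 12.8% in WT5, and 11.3 and 10.1% in KO4 and KO5, and the same libraries were higher for it. *Gabra3* and *Gabra4* were each below 0.1 UMIs per 10000 in WT2, WT3 and WT4.

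Among β subunits *Gabrb1*, known from glial cells, had the following share of the summed β level in glia, 64.6, 71.6 and 64.4% in WT2, WT3 and WT4, 28.1% in WT5, and 39.5 and 43.1% in KO4 and KO5. It was higher in WT2, WT3 and WT4 than in WT5, KO4 and KO5, without overlap (KO against WT, exact permutation test, p = 0.1, the smallest possible). *Gabrb2* averaged 0.0413 ± 0.00706 UMIs per 10000 in glutamatergic cells of WT2, WT3 and WT4.

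Among γ subunits *Gabrg1* showed a like pattern in glia, where it made up 23.3, 41.6 and 35.8% in WT2, WT3 and WT4, 10.6% in WT5, and 7.23 and 9.29% in KO4 and KO5 of the summed γ level. This share was higher in each of WT2, WT3 and WT4 than in any other library. It rested on few *Gabrg1* UMIs, 2, 7 and 30 in WT2, WT3 and WT4 and 2 in each of WT5, KO4 and KO5. *Gabrg3* contributed 6.95 to 14.3% in glutamatergic cells.

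GABA-B receptors need both subunits, GABBR1 to bind GABA and GABBR2 to reach the membrane and signal. *Gabbr1* stood in glutamatergic cells at 1.15, 1.14 and 1.36 UMIs per 10000 in WT2, WT3 and WT4, 1.09 in WT5, and 1.21 and 1.06 in KO4 and KO5, with little spread among libraries. *Gabbr2* stood at 0.143, 0.0776 and 0.162 UMIs per 10000 in WT2, WT3 and WT4, 0.127 in WT5, and 0.110 and 0.151 in KO4 and KO5, and *Gabbr1* made up 87.5 to 93.6% of the pair. In glial cells *Gabbr1* stood at 1.10, 0.891 and 1.19 UMIs per 10000 in WT2, WT3 and WT4, 1.42 in WT5, and 1.19 and 1.02 in KO4 and KO5, close to its level in glutamatergic cells, and it ranked next to *Gria2* in WT2, WT3 and WT4, while *Grin2b* exceeded it in WT5, KO4 and KO5.

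Ordered by their mean over WT2, WT3 and WT4, the receptor genes of glutamatergic cells began with *Gria2* (10.6 ± 1.36 UMIs per 10000, SD, n = 3), *Gabra2* (2.46 ± 0.415), *Grin2b* (1.59 ± 0.603) and *Gabbr1* (1.22 ± 0.124). *Grm5* (0.369 ± 0.125) was lower than *Gabbr1* without overlap. *Gria2* and *Gabra2* did not overlap, nor did *Gabra2* and *Grin2b*. *Grin2b* and *Gabbr1* overlapped, as did every pair of neighbours below *Grm5*. Glial cells began instead with *Gria2* (3.11 ± 0.652), *Gabbr1* (1.06 ± 0.152), *Grm5* (0.662 ± 0.161) and *Grin2b* (0.634 ± 0.205), of which *Grm5* and *Grin2b* overlapped.

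**Figure D1:**
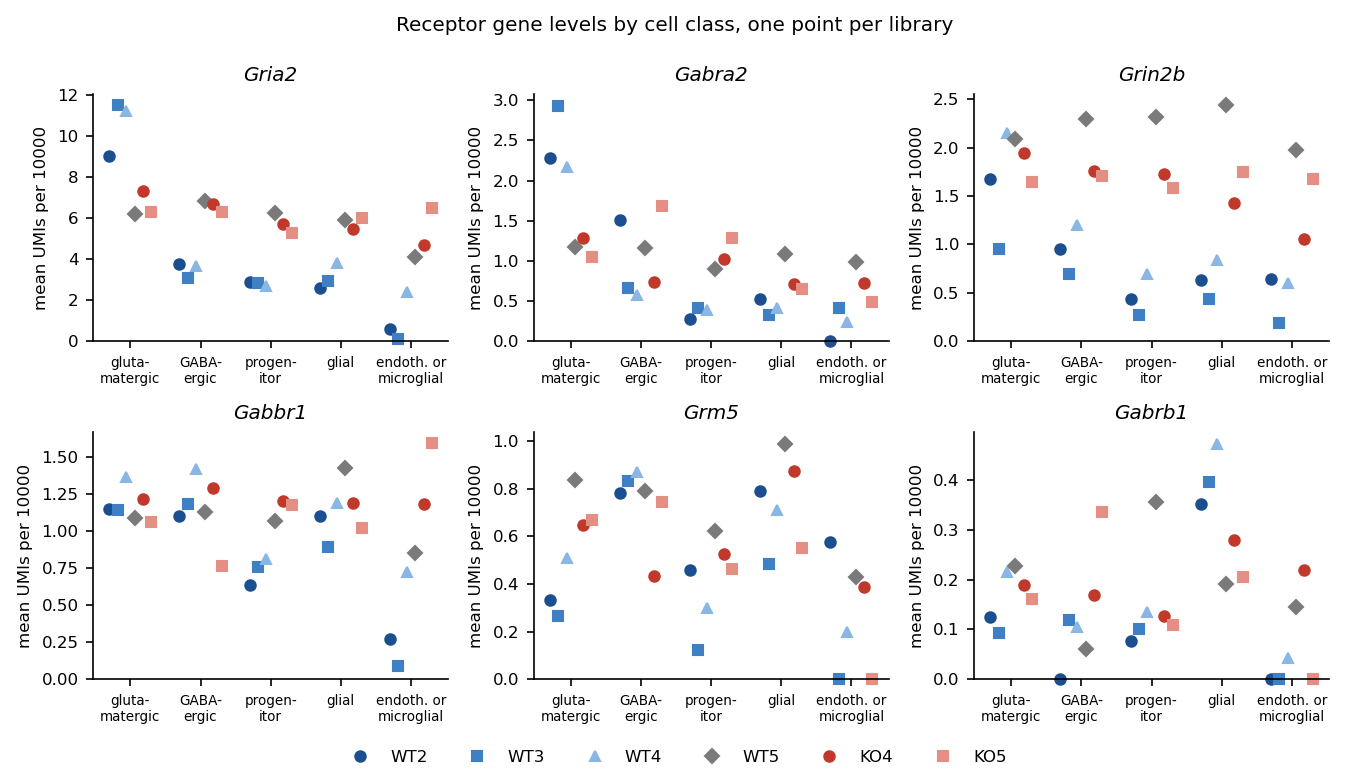
Mean UMIs per 10000 of 6 receptor genes (vertical axis, linear) by cell class (horizontal axis), 1 point per library with no averaging. *Gria2* and *Gabra2* of WT2, WT3 and WT4 (blue) were highest in glutamatergic cells, at 9.01 to 11.5 and 2.17 to 2.93, while *Gria2* of WT5 (grey) and KO4 and KO5 (red) ran from 4.11 to 7.31 over all 5 classes.

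**Figure D2:**
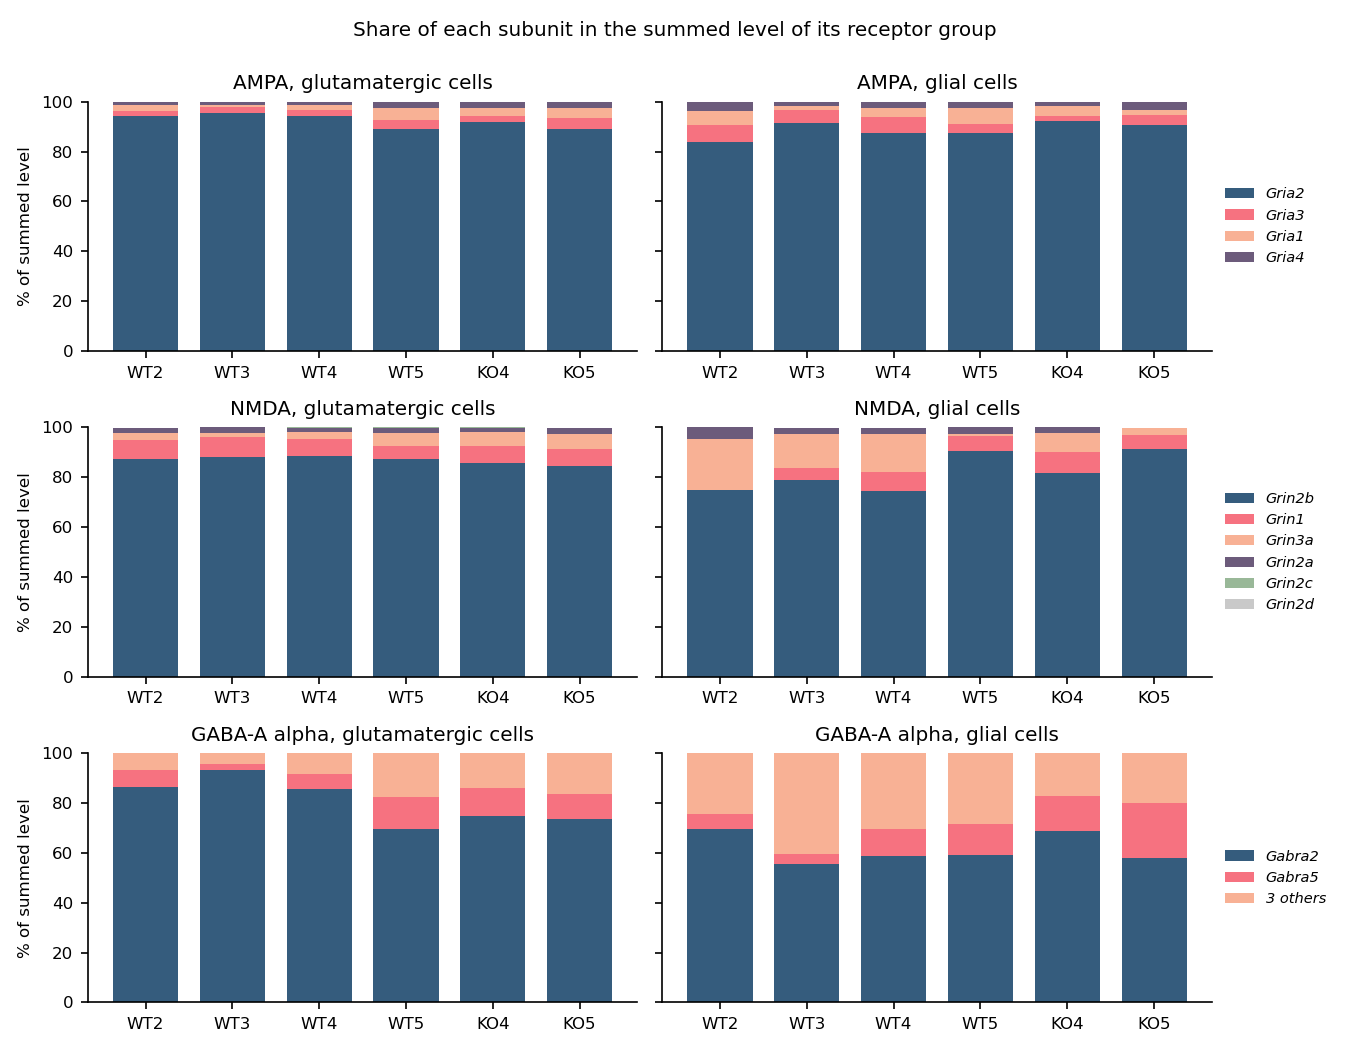
Share of each subunit (vertical axis, % of the summed level of its receptor group) per library (bars) in glutamatergic cells on the left and glial cells on the right, for AMPA, NMDA and GABA-A α genes, with the other 3 α genes drawn together. *Gria2* and *Grin2b* fill most of their bars, and *Gabra2* takes 85.8 to 93.2% of the glutamatergic α bar in WT2, WT3 and WT4 and 69.6 to 74.8% in WT5, KO4 and KO5.

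Classes of the same library were compared with limma on log2(level + 0.5), the library as a block, over all 6 libraries and 10690 genes, of which 25 were receptor genes. Genes with an adjusted p (Benjamini-Hochberg over all genes tested) under 0.05 are referred to as called. Most of the receptor genes called were lower outside the glutamatergic class. Between GABAergic and glutamatergic cells 0 of 25 receptor genes were called, 6 having an unadjusted p under 0.05 (edgeR called 0 and DESeq2 1), and 0.692% of all genes were called. In progenitors 3 of 25 were lower, *Gria2*, *Gabra2* and *Grin2b* (all genes, 3.78% lower), and 0 were higher. In glial cells 4 were lower, the same genes among them (all genes, 4.90%), and 2 were higher, *Gabra4* among them (all genes, 8.19%). The median log2 difference of the 25 genes was -0.03, -0.10 and -0.05 in GABAergic, progenitor and glial cells, beside -0.01, -0.0033 and 0.0031 over all genes tested. The calls rested on WT2, WT3 and WT4, since without any 1 of these the count was 0 in progenitors and in glia.

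In progenitors *Gria2* stood at 2.89, 2.85 and 2.70 UMIs per 10000 in WT2, WT3 and WT4, 6.25 in WT5, and 5.71 and 5.26 in KO4 and KO5. The log2 difference from the glutamatergic cells of the same library was -1.49, -1.84 and -1.87 in WT2, WT3 and WT4, 0.01 in WT5, and -0.33 and -0.24 in KO4 and KO5, so it was large in WT2, WT3 and WT4 and close to 0 in the others. Over the 6 libraries it averaged -0.96 (SE 0.24, limma adjusted p = 0.0229). *Gabra2* stood in progenitors at 0.278, 0.417 and 0.393 UMIs per 10000 in WT2, WT3 and WT4, 0.894 in WT5, and 1.03 and 1.29 in KO4 and KO5. Its log2 difference was -0.93 (SE 0.27, limma adjusted p = 0.039), and KO5 alone had the opposite sign. *Grin2b* in progenitors read 0.437, 0.271 and 0.691 UMIs per 10000 in WT2, WT3 and WT4, 2.32 in WT5, and 1.73 and 1.58 in KO4 and KO5. Its difference from glutamatergic cells was -0.56 (SE 0.14, limma adjusted p = 0.0103), and in WT5 the sign was positive.

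In glial cells *Gria2* stood at 2.57, 2.92 and 3.84 UMIs per 10000 in WT2, WT3 and WT4, 5.91 in WT5, and 5.45 and 6.02 in KO4 and KO5. The log2 difference from glutamatergic cells was negative in each of the 6 libraries, -1.63, -1.81 and -1.44 in WT2, WT3 and WT4, -0.07 in WT5, and -0.39 and -0.06 in KO4 and KO5, and averaged -0.90 (SE 0.24, limma adjusted p = 0.0243). *Gabra2* in glial cells stood at 0.522, 0.331 and 0.417 UMIs per 10000 in WT2, WT3 and WT4, 1.09 in WT5, and 0.713 and 0.650 in KO4 and KO5. It was likewise lower in every library, the log2 difference averaging -1.01 (SE 0.27, limma adjusted p = 0.0198). *Grin2b* read 0.630, 0.432 and 0.841 UMIs per 10000 in WT2, WT3 and WT4, 2.44 in WT5, and 1.42 and 1.74 in KO4 and KO5 (log2 difference -0.44, adjusted p = 0.0297), and WT5 and KO5 did not share its direction. *Gabra4*, for an α subunit of extrasynaptic receptors, was higher in glia at a low level, 0.10, 0.225 and 0.112 UMIs per 10000 in WT2, WT3 and WT4, 0.196 in WT5, and 0.134 and 0.0381 in KO4 and KO5 (log2 difference 0.19, adjusted p = 0.0302). KO5 was below its own glutamatergic level. The glial levels of *Gabra4* rested on 2, 14 and 28 UMIs in WT2, WT3 and WT4, 7 in WT5, and 9 and 1 in KO4 and KO5.

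The libraries differed in this comparison. In WT2, WT3 and WT4 alone (9925 genes, 22 receptor genes tested), 3 receptor genes were lower and 2 higher in GABAergic cells (all genes, 4.31 and 4.15%), 9 lower in progenitors (11.4%), and 6 lower and 7 higher in glial cells (12.6 and 17.3%). The 7 include *Grin3a*, *Gabrg1* and *Gabra4*, which passed the filter only through their glial levels. In WT5, KO4 and KO5 alone (9773 genes, 22 receptor genes) 0 were called in any class, with 2, 1 and 1 receptor genes at an unadjusted p under 0.05 in GABAergic, progenitor and glial cells and 0.153, 0.501 and 0.512% of all genes called. The 3 class comparisons share the glutamatergic cells.

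Within WT2, WT3 and WT4, GABAergic cells had less *Gria2* (log2 difference -1.47, adjusted p = 9.15e-09), *Gabra2* (-1.11, 0.00014) and *Grin2b* (-0.50, 0.00461) than glutamatergic cells. *Gria2* there stood at 3.76, 3.08 and 3.64 UMIs per 10000 in WT2, WT3 and WT4, 6.82 in WT5, and 6.67 and 6.28 in KO4 and KO5, and it was lower in each of these 3 libraries but not in WT5. Higher in GABAergic cells were *Grm5* (0.62, adjusted p = 0.00295) and *Gria1* (0.47, 0.0379), the latter at 0.243, 0.306 and 0.877 UMIs per 10000 in WT2, WT3 and WT4, 0.188 in WT5, and 0.168 and 0.374 in KO4 and KO5 and thus highest in WT4, whose GABAergic cells were also the most numerous. Progenitors of these libraries had less *Gabra2* (log2 difference -1.77), *Gria2* (-1.73), *Grin2b* (-1.09) and *Gabbr1* (-0.48). *Gria3* (-0.31), *Gabra5* (-0.27) and *Gabbr2* (-0.22) were lower by smaller amounts, and adjusted p ran from 2.38e-10 to 0.035 over these 7 genes. *Gabbr2* passed the filter only through its glutamatergic levels.

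Glial cells of WT2, WT3 and WT4 had less *Gabra2* (log2 difference -1.68), *Gria2* (-1.62), *Grin2b* (-0.86) and *Gabra5* (-0.20), with adjusted p of 4.43e-10 to 0.0417. They had more *Gabrb1* (0.49, adjusted p = 0.000321), *Grm5* (0.42, 0.0159) and *Grin3a* (0.23, 0.0171). *Gabrg1*, *Grm3* and *Gabra4* were also higher, by 0.21 each, and *Grm3* encodes a Gi-coupled receptor known from astrocytes. In these libraries *Grin3a*, *Gabrg1* and *Gabra4* reached the filter level of 0.1 in glial cells only. They could be tested only because of those levels, so their calls are no support for a rise. *Gabrb1* in glia stood at 0.351, 0.395 and 0.472 UMIs per 10000 in WT2, WT3 and WT4, 0.192 in WT5, and 0.279 and 0.205 in KO4 and KO5. In glutamatergic cells of WT2, WT3 and WT4 it stood at 0.0921 to 0.216, so the classes did not overlap in these libraries. *Grm5* in glia read 0.793, 0.482 and 0.712 UMIs per 10000 in WT2, WT3 and WT4, 0.99 in WT5, and 0.876 and 0.553 in KO4 and KO5, WT3 being lowest and WT5 highest, and *Grin3a* read 0.175, 0.0747 and 0.176 UMIs per 10000 in WT2, WT3 and WT4, 0.0270 in WT5, and 0.130 and 0.0578 in KO4 and KO5, WT5 being lowest. *Gabrg1*, *Gabra2*, *Gabra4* and *Gabrb1* lie side by side on chromosome 5 (chr5:70751047-72149037 of GRCm38). *Gabra2* was lower and its 3 neighbours higher in glial cells of WT2, WT3 and WT4.

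**Figure D3:**
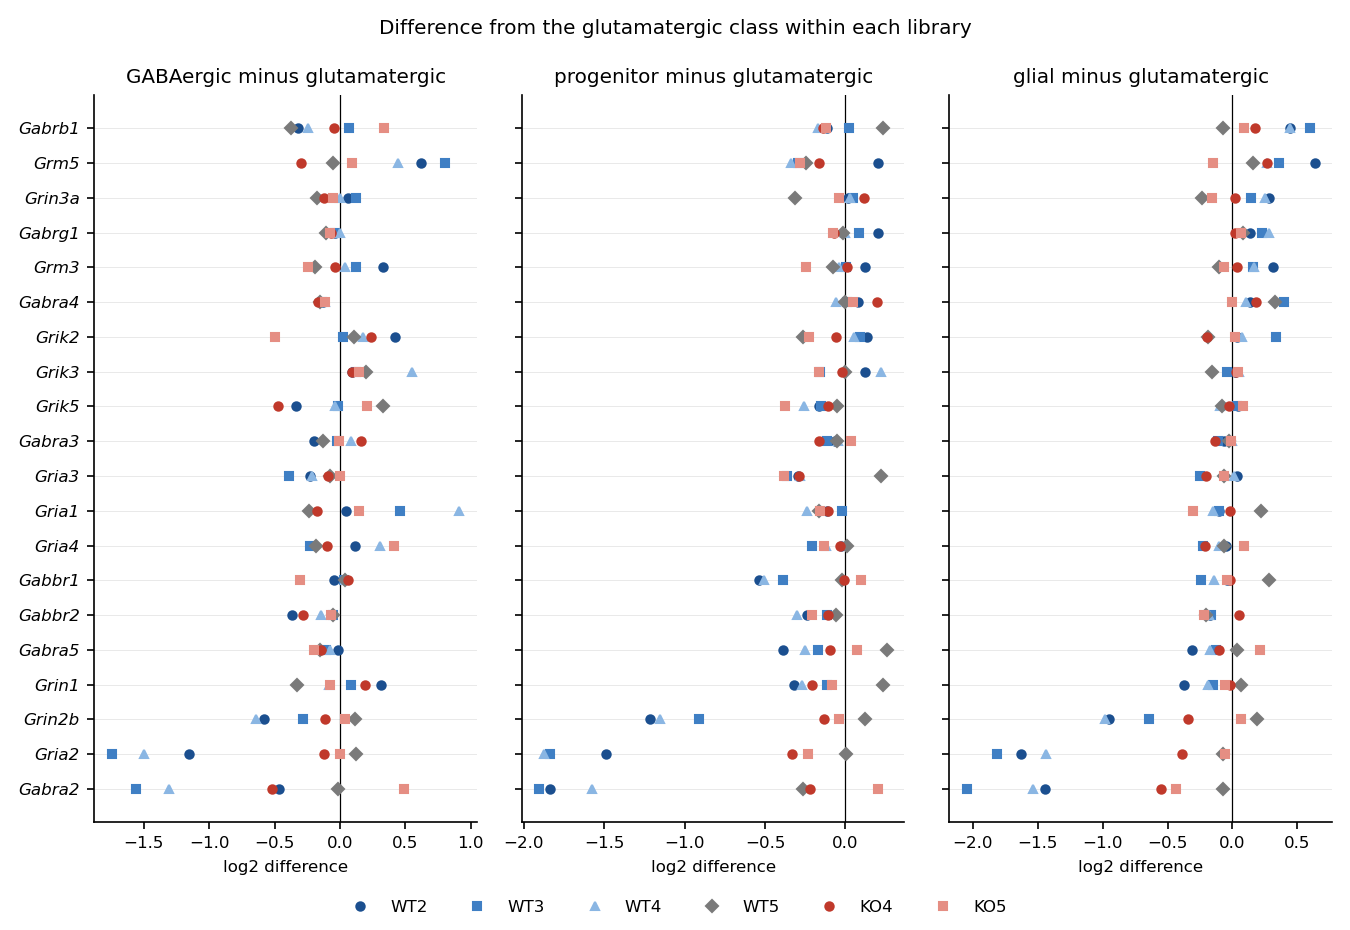
Difference of log2(level + 0.5) from the glutamatergic class of the same library (horizontal axis) for 20 of the 25 receptor genes tested, 1 point per library. Points of WT2, WT3 and WT4 for *Gria2*, *Gabra2* and *Grin2b* lie left of 0 in all 3 panels (*Gria2* in glia, -1.81 to -1.44), and those of WT5, KO4 and KO5 lie nearer to 0 for *Gria2* in glia (-0.39 to -0.06).

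The share of cells with at least 1 UMI, after thinning each cell to 1800 UMIs, set these levels against the background of endothelial and microglial cells. The share of glutamatergic cells with *Gria2* came to 72.8, 79.1 and 78.4% in WT2, WT3 and WT4, 66.1% in WT5, and 69.9 and 65.6% in KO4 and KO5, and without thinning 84.2, 93.0, 94.8, 73.9, 77.7 and 74.6% in WT2, WT3, WT4, WT5, KO4 and KO5. Endothelial and microglial cells showed *Gria2* in 8.33% of 24 cells (95% exact binomial interval 1.03 to 27.0%) in WT2 and 19.0% of 79 cells (95% exact binomial interval 11.0 to 29.4%) in WT4, and in WT3 in 0 of 14 cells, which allows a share of up to 21.4%. In WT5 they showed it in 54.5% of 33 cells (95% exact binomial interval 36.4 to 71.9%), in KO4 in 58.3% of 60 cells (95% exact binomial interval 44.9 to 70.9%) and in KO5 in 62.5% of 16 cells (95% exact binomial interval 35.4 to 84.8%). The background was thus high in WT5, KO4 and KO5 and did not overlap that of WT2, WT3 and WT4. Without thinning, at medians of 2031 to 4630 UMIs per cell, the background was 29.2, 7.14, 43.0, 54.5, 73.3 and 87.5% in WT2, WT3, WT4, WT5, KO4 and KO5. Limits for a share of 0 are 3 cells of the total, a rule apart from the exact intervals. Both cover counting error only.

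The glutamatergic share of *Gria2* lay above the upper bound of this background in WT2, WT3 and WT4. In WT5, KO4 and KO5 it lay within the interval of the background. The 3 remaining classes likewise differed from this background in some libraries only. In GABAergic cells the thinned share of *Gria2* was 47.3, 33.9 and 40.9% in WT2, WT3 and WT4, 73.3% in WT5, and 66.7 and 68.2% in KO4 and KO5. In progenitors it was 34.2, 33.1 and 32.6% in WT2, WT3 and WT4, 63.6% in WT5, and 55.3 and 59.1% in KO4 and KO5. In KO4 and KO5 it did not exceed the background of the same library, and whether it was expression there was not tested. In glial cells it was 32.4, 34.4 and 41.3% in WT2, WT3 and WT4, 69.1% in WT5, and 59.0 and 67.6% in KO4 and KO5. In WT2, WT3 and WT4 all 3 classes lay above their own background and its upper bound, in KO4 and KO5 they lay within the interval of theirs, and in WT5 only GABAergic cells lay above it. *Grin2b* had a background of 20.8, 7.14 and 11.4% in WT2, WT3 and WT4, 27.3% in WT5, and 11.7 and 25.0% in KO4 and KO5. Its share in progenitors was 6.67, 2.33 and 10.8% in WT2, WT3 and WT4, 31.8% in WT5, and 23.6 and 22.6% in KO4 and KO5. In WT3, WT4, WT5 and KO5 this lay within the 95% exact binomial interval of the background. These intervals ran from 0.181 to 33.9, 5.34 to 20.5, 13.3 to 45.5 and 7.27 to 52.4%. In WT2 the share lay below the lower bound (7.13%), and in KO4 above the upper bound (22.6%). Whether these shares were background was not tested. The share of glutamatergic cells with *Gabra2* was 30.0, 33.7 and 28.1% in WT2, WT3 and WT4, 18.7% in WT5, and 19.8 and 17.1% in KO4 and KO5, and its background was 0 to 18.2% over the 6 libraries, the lowest being 0 of 24 cells, which allows a share of up to 12.5%, in WT2.

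KO4 and KO5 were compared with WT2, WT3 and WT4 within each class. The 1 receptor gene called in glutamatergic cells was lower in KO, and those called in the other 3 classes were higher. In glutamatergic cells 1 of 18 receptor genes tested was called, *Gabra2*, which fell (0.650% of all 8313 genes fell). In GABAergic cells 1 of 18 rose, *Gria2* (0.767% of all genes rose). In progenitors 4 of 16 rose, *Grin2b*, *Gabra2*, *Gria2* and *Gabra5* (5.41% of all genes), and in glial cells 3 of 21 rose, *Grin2b* and *Gria2* among them (3.78% of all genes). *Gabra5* was tested in progenitors only because KO4 and KO5 reached the filter level of 0.1, so its call is no support for a rise. No receptor gene fell in the last 3 classes or rose in the first at adjusted p under 0.05, whereas of all genes 2.51% rose in glutamatergic cells, 1.24% changed in either direction in GABAergic cells, and 9.27 and 7.09% fell in progenitors and glia. Positive differences numbered 13 of 18 in glutamatergic, 11 of 18 in GABAergic, 14 of 16 in progenitor and 13 of 21 in glial cells. These include genes that passed the filter only through KO4 and KO5, such as *Grin3a* in glutamatergic cells and progenitors. *Gabra5* in progenitors and glia is another. Of all genes tested 30.7, 42.4, 40.1 and 37.1% were positive. The medians over the receptor genes tested were 0.07, 0.15, 0.19 and 0.14 in these classes, beside -0.07, -0.05, -0.07 and -0.08 over all genes. With WT5 counted as WT, as labelled, 0 genes of any kind were called by limma in each class (0% of 8407, 9161, 9155 and 9362 genes), and 2, 2, 2 and 1 receptor genes had an unadjusted p under 0.05. WT5 lay on the KO side of WT2, WT3 and WT4 for each receptor gene called. Counts also turned on single libraries. In glutamatergic cells 0 were called without WT2, KO4 or KO5, and without WT4 there were 4, of which 3 rose and 1 fell. The count was, in GABAergic cells 0 without WT2, WT3, KO4 or KO5, and in glial cells 2 without WT2 and 0 without KO5, while in progenitors there were 3 or 4.

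In glutamatergic cells the difference of *Gabra2* was -0.82 (SE 0.14, limma adjusted p = 0.0168), from the levels given above, and its thinned share of cells was lower in KO4 and KO5 without overlap (exact permutation test, p = 0.1). With WT5 added it was -0.62 (adjusted p = 0.682). *Gria2* did not pass, at -0.60 (SE 0.15, limma adjusted p = 0.0734), though KO4 and KO5 lay below all of WT2, WT3 and WT4. *Grm5* (0.42, adjusted p = 0.0934) had higher values in KO4 and KO5 without overlap and did not pass either. The same held for *Gria1*, at 0.220, 0.0855 and 0.231 UMIs per 10000 in WT2, WT3 and WT4, 0.311 in WT5, and 0.253 and 0.289 in KO4 and KO5 (log2 difference 0.19, adjusted p = 0.245), and for *Grin3a*, at 0.0544, 0.0197 and 0.0666 UMIs per 10000 in WT2, WT3 and WT4, 0.121 in WT5, and 0.123 and 0.122 in KO4 and KO5 (0.19, adjusted p = 0.0792). WT5 was the highest library for *Grm5* and *Gria1* and level with KO4 and KO5 for *Grin3a*. Among the libraries compared *Grin3a* reached the filter level of 0.1 only in KO4 and KO5. *Grin2b* and *Gabbr1*, the remaining abundant genes, overlapped between genotypes, at 0.17 (SE 0.22) and -0.07 (SE 0.11).

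In GABAergic cells *Gria2* rose by 0.81 (SE 0.20, limma adjusted p = 0.0368) on the log2 scale, KO4 and KO5 both exceeding every WT library but WT5, and by 0.59 with WT5 added (adjusted p = 0.492). Their GABAergic cells numbered 69 and 44. In this class the 8 glutamatergic markers summed to 10.1 to 12.9 UMIs per 10000 in WT5, KO4 and KO5 and to 4.07 to 7.24 in WT2, WT3 and WT4, with 7 or 8 of them detected per library. The 9 GABAergic markers, all detected, summed to 11.8 to 13.5 and 19.7 to 23.3. The part of either list in the result was not tested. *Grin2b*, at 0.953, 0.692 and 1.20 UMIs per 10000 in WT2, WT3 and WT4, 2.3 in WT5, and 1.75 and 1.70 in KO4 and KO5, was higher without overlap but not called (0.64, adjusted p = 0.196). *Gabrb1* stood at 0, 0.120 and 0.104 UMIs per 10000 in WT2, WT3 and WT4, 0.0614 in WT5, and 0.169 and 0.335 in KO4 and KO5, with no UMI in the 55 GABAergic cells of WT2 (log2 difference 0.39, adjusted p = 0.344). It was higher in KO4 and KO5 without overlap, on 3 UMIs in each. *Grm5* was lower (-0.30, limma adjusted p = 0.614), and neither gene passed. In endothelial and microglial cells, the background, *Gria2* read 0.583, 0.0894 and 2.41 UMIs per 10000 in WT2, WT3 and WT4, 4.11 in WT5, and 4.70 and 6.5 in KO4 and KO5, and *Grin2b* read 0.642, 0.188 and 0.606 UMIs per 10000 in WT2, WT3 and WT4, 1.98 in WT5, and 1.05 and 1.67 in KO4 and KO5. Both were higher in KO4 and KO5 than in WT2, WT3 and WT4, as were the glutamatergic markers.

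In progenitors 4 receptor genes rose. *Grin2b* rose by 1.18 (SE 0.18, limma adjusted p = 4.87e-05) on the log2 scale. From the progenitor levels given above smaller rises were found for *Gabra2* (0.94, SE 0.16, adjusted p = 0.00024) and *Gria2* (0.85, SE 0.17, adjusted p = 0.000803). The share of progenitors with *Gria2* in KO4 and KO5 (55.3 and 59.1%) did not exceed that of endothelial and microglial cells (58.3 and 62.5%). For *Grin2b* the same held in WT2, WT3, WT4 and KO5. The part of this background in the rises of *Gria2* and *Grin2b* was not tested. *Gabra5* was low, at 0.0180, 0.00901 and 0.0472 UMIs per 10000 in WT2, WT3 and WT4, 0.356 in WT5, and 0.149 and 0.176 in KO4 and KO5 (log2 difference 0.34, adjusted p = 0.0157). WT5 was highest for it, and it was not called without WT3. Among the libraries compared it reached the filter level of 0.1 only in KO4 and KO5. Its levels rested on 1, 1 and 10 UMIs in WT2, WT3 and WT4, 8 in WT5, and 7 and 4 in KO4 and KO5. *Gabbr1*, at 0.636, 0.755 and 0.808 UMIs per 10000 in WT2, WT3 and WT4, 1.07 in WT5, and 1.20 and 1.17 in KO4 and KO5, did not pass (0.45, adjusted p = 0.0645). Neither did *Grm5*, at 0.461, 0.124 and 0.298 UMIs per 10000 in WT2, WT3 and WT4, 0.624 in WT5, and 0.526 and 0.463 in KO4 and KO5 (0.35, adjusted p = 0.17), or *Grin3a*, at 0.0613, 0.0366 and 0.0780 UMIs per 10000 in WT2, WT3 and WT4, 0 in WT5, and 0.174 and 0.104 in KO4 and KO5 (0.19, adjusted p = 0.201). KO4 and KO5 lay above WT2, WT3 and WT4 for all 3 genes, but *Grin3a* passed the filter only through KO4 and KO5. With WT5 added, *Grin2b* stood at 0.79 (adjusted p = 0.634), *Gabra2* at 0.77 (0.617) and *Gria2* at 0.60 (0.617). Markers of glutamatergic cells moved with them. The 8 glutamatergic markers summed to 10.5 to 11.5 UMIs per 10000 in progenitors of KO4 and KO5, to 10.2 in those of WT5 and to 5.10 to 8.63 in those of WT2, WT3 and WT4, with 7 or 8 of them detected per library. The 9 GABAergic markers went the other way in progenitors. They summed to 5.92 to 11.4 in WT2, WT3 and WT4 and to 1.87 to 2.72 in WT5, KO4 and KO5, with 7 or 9 detected per library. The part of either list in the result was not tested.

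In glial cells *Grin2b* rose by 0.89 (SE 0.18, limma adjusted p = 0.0027) and *Gria2* by 0.80 (SE 0.17, limma adjusted p = 0.00498) on the log2 scale, from the glial levels given above. KO4 and KO5 lay above WT2, WT3 and WT4 for both genes, and WT5 lay with them. In KO4 and KO5 the share of glial cells with *Gria2* lay within the interval of the background, as stated above. The part of this background in the rise was not tested. With WT5 added the log2 differences were 0.54 and 0.59 (adjusted p = 0.717 and 0.68). *Gabra5* stood at 0.0458, 0.0233 and 0.0783 UMIs per 10000 in WT2, WT3 and WT4, 0.232 in WT5, and 0.144 and 0.246 in KO4 and KO5 (log2 difference 0.34, adjusted p = 0.0506). *Grik5* stood at 0.267, 0.116 and 0.340 UMIs per 10000 in WT2, WT3 and WT4, 0.317 in WT5, and 0.373 and 0.50 in KO4 and KO5 (0.35, adjusted p = 0.151). Both, and *Gabra2* (0.36, adjusted p = 0.145), were higher in KO4 and KO5 without overlap and did not pass. Among the libraries compared *Gabra5* reached the filter level of 0.1 only in KO4 and KO5. *Gabrg1*, a γ subunit known from glia, stood at 0.0619, 0.101 and 0.132 UMIs per 10000 in WT2, WT3 and WT4, 0.0687 in WT5, and 0.0311 and 0.0511 in KO4 and KO5 (-0.14, adjusted p = 0.38). It and *Gabrb1* (-0.29, adjusted p = 0.202) had lower values in KO4 and KO5, also short of the threshold. *Gabrg1* had only 2 UMIs in the glial cells of each of WT2, WT5, KO4 and KO5. The glutamatergic markers in glial cells summed to 3.88 to 5.28 in WT2, WT3 and WT4 and to 10.1 to 11.4 in WT5, KO4 and KO5, with 7 or 8 of them detected per library. Their part in these results was not tested. On the X chromosome, where KO5 showed no *Xist* in any class and each other library did, *Gria3* differed by 0.01, 0.23, -0.01 and -0.06 in glutamatergic, GABAergic, progenitor and glial cells and was not called.

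**Figure D4:**
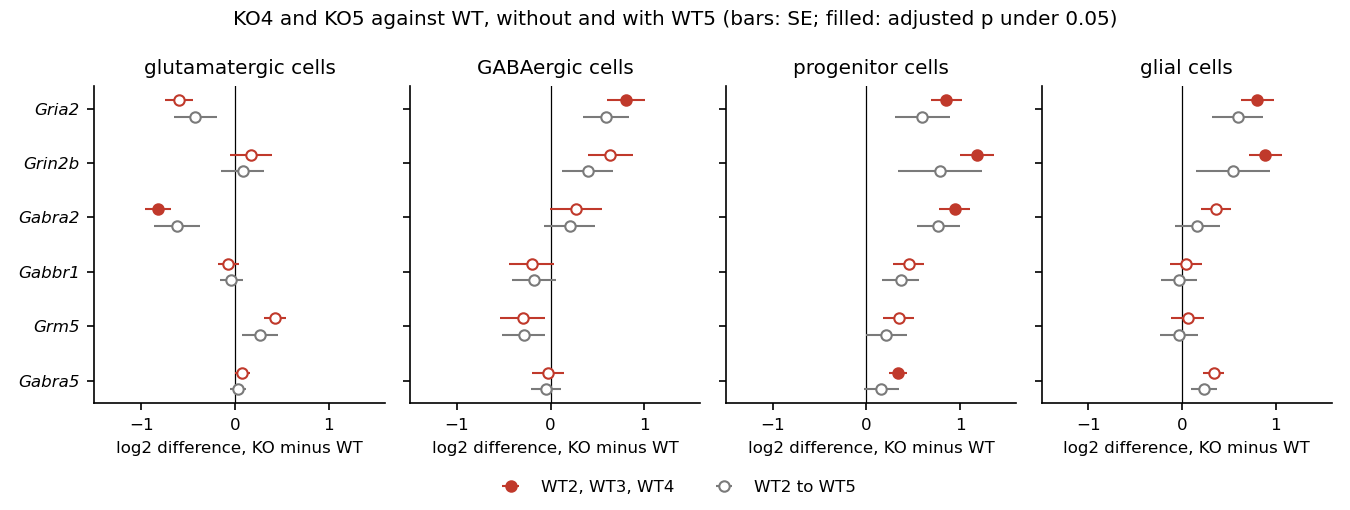
Log2 difference of KO4 and KO5 from WT2, WT3 and WT4 (red) and from WT2 to WT5 (grey) in each class for 6 receptor genes, with bars of 1 SE and filled points for adjusted p under 0.05. *Gria2* lay at -0.60 in glutamatergic cells and at 0.80 to 0.85 in the others, and no grey point is filled.

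Whether the genotypes differed by class was tested on the difference between GABAergic and glutamatergic cells of each library, over 9169 genes of which 20 were receptor genes. For *Gria2* this difference was -1.16, -1.75 and -1.5 in WT2, WT3 and WT4, 0.12 in WT5, and -0.12 and -0.00045 in KO4 and KO5. It lay well below 0 in WT2, WT3 and WT4 and near 0 in the other libraries. The change of it from WT to KO was 1.41 (SE 0.16, limma adjusted p = 3.86e-06). *Gabra2* differed between the classes by -0.47, -1.56 and -1.31 in WT2, WT3 and WT4, -0.01 in WT5, and -0.52 and 0.49 in KO4 and KO5, WT2 and KO4 being alike, and its change was 1.10 (SE 0.28, limma adjusted p = 0.0435). These 2 of 20 receptor genes were called, both higher, as were 0.753% of all genes, and without WT3, WT4 or KO5 *Gabra2* was not called and the count was 1. The medians were 0.0032 over receptor genes and 0.0048 over all genes. *Grm5* (-0.72, adjusted p = 0.125) had the largest opposite value and was not called. The test of this difference was not repeated with WT5 counted as WT.

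Summed over all 38 genes, receptor levels in glutamatergic cells were 17.7, 19.1 and 21.2 UMIs per 10000 in WT2, WT3 and WT4, 15.5 in WT5, and 16.3 and 14.6 in KO4 and KO5. In progenitors they were 7.02, 5.70 and 7.03 UMIs per 10000 in WT2, WT3 and WT4, 15.7 in WT5, and 13.3 and 12.2 in KO4 and KO5. In glial cells the sum was 8.40, 7.33 and 10.4 UMIs per 10000 in WT2, WT3 and WT4, 15.9 in WT5, and 13.1 and 13.6 in KO4 and KO5. The sum in GABAergic cells was 11.8, 8.66 and 12.1 UMIs per 10000 in WT2, WT3 and WT4, 15.7 in WT5, and 14.3 and 15.4 in KO4 and KO5. Glutamatergic cells held the most receptor RNA in WT2, WT3 and WT4 without overlap with any other class, whereas in WT5, KO4 and KO5 the classes lay closer together. In endothelial and microglial cells the sum was 4.01, 1.23 and 6.05 UMIs per 10000 in WT2, WT3 and WT4, 11.6 in WT5, and 11.5 and 13.2 in KO4 and KO5. KO4 and KO5 exceeded WT2, WT3 and WT4 in each class but the glutamatergic one, where they were lower. Of 40 exact permutation tests of summed receptor groups and of the total by class, none was below p = 0.1, the smallest possible, and 14 reached it (adjusted p = 0.286, Benjamini-Hochberg over the 40). The sum of the GABA-A α genes in glutamatergic cells, 2.63, 3.15 and 2.53 UMIs per 10000 in WT2, WT3 and WT4, 1.68 in WT5, and 1.71 and 1.43 in KO4 and KO5, was the only lower one among these 14.

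Genes that act beside the receptors were followed as counts, from a list of 60 with 56 in the libraries. They comprise auxiliary subunits, scaffolds of excitatory and inhibitory synapses, transporters of glutamate and GABA, chloride transporters and further subunits. Between genotypes, 2 of 39 rose in glutamatergic cells, while 2.51% of all genes rose. In GABAergic cells 0 of 40 were called by limma, edgeR or DESeq2, 4 having an unadjusted p under 0.05 (limma called 1.24% of all genes). In progenitors 8 of 38 rose and 1 fell (5.41 and 9.27% of all genes), and in glial cells 5 of 38 rose and 2 fell (3.78 and 7.09%). Their medians were 0.03, 0.11, 0.18 and 0.06 in glutamatergic, GABAergic, progenitor and glial cells, to be set beside those of all genes given above. *Cnih2*, for an AMPA receptor partner (log2 difference 0.78 in progenitors, 0.83 in glia), and *Shank1*, for a scaffold of excitatory synapses (0.96 and 0.74), had the largest values among those that rose. *Cnih2* in glia stood at 1.47, 0.802 and 1.62 UMIs per 10000 in WT2, WT3 and WT4, 3.03 in WT5, and 2.31 and 2.96 in KO4 and KO5, and it reached its glutamatergic level of 3.14 to 3.84 in none of WT2, WT3 and WT4. Those that fell encode transporters of astrocytes, *Slc1a2* for glutamate (log2 difference -0.69 and -1.17) and *Slc6a11* for GABA (-0.82 in glia).

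Across classes these partner genes were also counted. In WT2, WT3 and WT4 alone, 2 of 41 were higher and 2 lower in GABAergic cells (4.15 and 4.31% of all genes), 3 higher and 11 lower in progenitors (12.7 and 11.4% of all genes), and 4 higher and 12 lower in glia (17.3 and 12.6%). Over all 6 libraries 0 of 45 were called in GABAergic cells by limma or edgeR and 2 by DESeq2, with 2 at an unadjusted p under 0.05 in limma. By limma 1 was higher and 4 lower in progenitors (5.01 and 3.78% of all genes), and 3 were higher and 5 lower in glia (8.19 and 4.90%). *Slc1a2* (log2 difference 0.84, adjusted p = 0.00694) and *Slc6a11* (0.54, adjusted p = 0.00651) were among the 3 higher in glia. *Slc1a2* in glia read 1.25, 0.869 and 1.69 UMIs per 10000 in WT2, WT3 and WT4, 0.407 in WT5, and 0.227 and 0.325 in KO4 and KO5, and here WT2, WT3 and WT4 were the higher libraries. In the comparison of genotype between GABAergic and glutamatergic cells 1 of 41 partner genes was called, with a lower KO minus WT difference in GABAergic cells (0.731% of all genes lower).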

How the data were processed

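Single-cell libraries of E18.5 neocortex were sequenced and processed by the authors with Cell Ranger (GRCm38) and Seurat 2.3.4. The 4 libraries WT4, WT5, KO4 and KO5 were deposited as UMI counts per gene and cell. In WT2 and WT3 the deposited values are natural log values, ln(1 + UMIs per 10000), from which whole UMIs were recovered (100% of values within 1e-06). The other 3 libraries of the series were not used here. A gene missing from a library's table was taken as 0. Cells with 1000 to 5000 genes, 1800 to 10000 UMIs, under 6% mitochondrial and at most 1% haemoglobin UMIs were kept, 3487769 to 29767293 UMIs being deposited per library. A cell took a class if at least 2 of its markers, and more than of any other of 6 lists, had a UMI after thinning to 1800 UMIs. This depth was met by every cell. Scrublet's own threshold marked at most 0.507% of cells, so doublets were left in, and leaving out the highest 5% of scores was an alternative.

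Levels were averaged over the cells of a class per library, so the animal is the replicate. Genes whose level reached 0.1 in 2 or more of the libraries compared were tested with limma-trend and robust variances on log2(level + 0.5) (limma 3.58.1, R 4.3.3), with the same library as a block between classes, with Benjamini-Hochberg adjustment over all of them and a threshold of 0.05. Since 2 libraries were deposited as logs, edgeR 4.0.16 and DESeq2 1.42.0 on recovered UMIs were alternatives. The tests were tried on simulated UMIs with known changes, drawn independently for each library. This simulation held neither the split between libraries nor background RNA, so it does not check the results for these. Single values were compared by 2-sided exact permutation tests. Positions are from GENCODE vM21 on GRCm38, matched by symbol.

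Named with values are, per class comparison, the 4 called receptor genes with the largest difference in each direction, per genotype comparison each called receptor gene and the 3 largest rises and falls without overlap between genotypes, and the most abundant gene of each receptor type. The receptor genes, partner list and tests were chosen with earlier results of these data known. Genes named outside this rule were chosen after their values were seen. Some genes are counted but not reported by name here.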

Additional observations from a re-analysis of the deposited data

Results flagged for a closer look

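The KO minus WT difference was not the same in GABAergic and glutamatergic cells for 2 receptor genes. This was tested on the difference itself over WT2, WT3, WT4, KO4 and KO5 (limma, adjusted over 9169 genes). Among these libraries genotype cannot be told apart from the split described above, and the test was not repeated with WT5 counted as WT. For *Gria2* the KO minus WT difference was 1.41 larger on the log2 scale in GABAergic cells (adjusted p = 3.86e-06), being -0.60 in glutamatergic and 0.81 in GABAergic cells. For *Gabra2* it was 1.10 larger (adjusted p = 0.0435), being -0.82 and 0.27. *Gabra2* had 12 and 17 UMIs in GABAergic cells of KO4 and KO5, and it was not called without WT3, WT4 or KO5. In the endothelial and microglial background *Gria2* stood at 0.583, 0.0894 and 2.41 UMIs per 10000 in WT2, WT3 and WT4, 4.11 in WT5, and 4.70 and 6.5 in KO4 and KO5, and *Gabra2* at 0, 0.412 and 0.240 UMIs per 10000 in WT2, WT3 and WT4, 0.986 in WT5, and 0.728 and 0.483 in KO4 and KO5, and the part of this background in both differences was not tested. WT5, labelled WT, had class differences of 0.12 for *Gria2* and -0.01 for *Gabra2*, which lie with those of KO4 and KO5.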

How the results depend on the processing

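Genotypes were compared over 3 against 2 libraries, and classes held as few as 44 cells (GABAergic, KO5) or 14 (endothelial and microglial, WT3). The number of receptor genes called between genotypes (main values 1, 1, 4 and 3 in glutamatergic, GABAergic, progenitor and glial cells) became 0 in each class with WT5 counted as WT. Leaving out 1 library at a time gave 0 to 4, 0 to 1, 3 to 4 and 0 to 3. In GABAergic cells the count was also 0 with a pseudocount of 0.1, without the filter on low values, by edgeR, by DESeq2, with 3 markers per cell and with a shorter list of glutamatergic markers. In glutamatergic cells it was 0 without the filter and 2 with 3 markers. Between classes (0, 3 and 6 in GABAergic, progenitor and glial cells) WT2, WT3 and WT4 alone gave 5, 9 and 13, and WT5, KO4 and KO5 alone 0, 0 and 0. By edgeR 0, 12 and 10 were called and by DESeq2 1, 11 and 10. In progenitors the count was 1 without the filter and 6 with the shorter marker list. Leaving out 1 library gave 0 to 0, 0 to 5 and 0 to 6. The difference of the genotype effect between GABAergic and glutamatergic cells was called for 2 receptor genes, for 1 with a pseudocount of 0.1 or with 3 markers, for 3 (2 higher and 1 lower) with cells thinned to 1800 UMIs, and for 1 to 2 with 1 library left out. Among the libraries used, WT and KO labels share only the numbers 4 and 5, which the labels tie to no common litter or day, and the deviations of libraries of the same number correlated at 0.260, 0.0606, 0.178 and 0.183 in the 4 classes. With the replicate number as a block (WT4, WT5, KO4 and KO5) 0 receptor genes were called in each class, and without it 0. In both of these fits *Grm5* in glutamatergic cells (-0.0024), *Gabra5* in progenitors (-0.0467) and *Gabra2* in glia (-0.0312) changed sign, and *Grm5* in GABAergic cells did so with 3 markers (0.0194). Of 601 values of single receptor genes over 21 settings 594 had the direction given in the report. The fits of WT5, KO4 and KO5 alone and of WT4, WT5, KO4 and KO5 without a block were chosen after seeing the data. The cause of these changes was not tested.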
